A study of Macaca mulatta with 17 samples.

Results

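The Frizzled family, the 10 cell surface receptors FZD1 to FZD10, was followed in the fetal rhesus macaque uterus at mid-gestation and at term, with and without maternal exposure to bisphenol A (BPA). A member was any probe of the array, other than a control spot, whose printed description names the receptor's symbol, and a gene with several such probes would have been given by its brightest one. Each of the 10 genes had 1 probe, so the family made up 10 of the 17272 distinct gene names on the array. The naming used no measured difference between groups. In each case the description names the human transcript for which the macaque probe stands.

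RNA from each fetal uterus was measured on its own Agilent single-color array, 17 arrays in all. The 4 groups were 5 GD100 control, 5 GD100 BPA, 4 GD165 control and 3 GD165 BPA female fetuses (GD, gestational day). Dams of the BPA groups were fed deuterated BPA, an estrogenic monomer of polycarbonate plastic, at 400 µg per kg per day in fruit, and control dams received the ethanol vehicle. For the GD100 groups the dams were dosed from day 50 to day 100 and delivered by caesarean section, and for the GD165 groups they were dosed from day 100 and delivered vaginally between days 165 and 168. Age, mode of delivery and treatment window therefore cannot be told apart in any GD165 to GD100 comparison. The frozen piece was a side of the uterus running from fundus to cervix, with all of its tissue layers. In such bulk tissue a lower level may stand for fewer cells of a type or for less RNA per cell, and the arrays cannot separate these. Stillborn fetuses of the term groups were not arrayed.

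Frizzled proteins span the membrane 7 times and carry a cysteine-rich outer domain that binds WNT ligands. With the co-receptors LRP5 and LRP6 they recruit dishevelled and stabilize beta-catenin, and with ROR and other partners they act on cell polarity and calcium. WNT signals pattern the Müllerian duct, from which the uterus arises, and later take part in the growth of endometrial glands. By sequence the receptors fall into the subfamilies FZD1, FZD2 and FZD7, then FZD5 and FZD8, then FZD4, FZD9 and FZD10, and last FZD3 and FZD6, the pair best known for planar cell polarity.

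The probes are what each measurement rests on. Those of FZD2 and FZD9, the receptors that fell with age, and of FZD8, a receptor with no call, are shown whole because they are the only 3 member probes without a stop codon in any of the 3 forward frames. Whether they lie in coding sequence was not tested.
FZD2: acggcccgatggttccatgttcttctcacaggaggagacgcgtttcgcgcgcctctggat
FZD9: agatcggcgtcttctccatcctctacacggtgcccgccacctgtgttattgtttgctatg
FZD8: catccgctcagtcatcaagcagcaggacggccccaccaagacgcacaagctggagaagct
For FZD4 and FZD10, which lay between the 2 thresholds used below, the first 30 bases of the probe are shown.
FZD4, first bases: aaatggaccctgcttttaaggatgtacaaa
FZD10, first bases: tctggccttcaccagtagtctctctgcaag
The 10 probes are 60 bases long and between 35% and 60% G or C. Compared only with each other, no member probe shares a run of more than 8 bases with another. Whether a probe matches the transcript of another receptor was not tested.

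Levels below are log2 signals put on a common scale by subtracting the 75th percentile of the array and adding back its mean over arrays, 12.62. Levels of different genes come from different probes and are not compared. Over the 17 arrays, 83.8% to 89.0% of spots were well above background, and the number of arrays limits the precision. FZD3 did not rise well above background on any of the 17 arrays, at levels of 2.27 to 3.28, so its values bound it only and no fold is given for it. The other 9 receptors were well above background and unsaturated on every array. Of 8 markers of the uterus and the Müllerian tract, 7, among them HOXA10, HOXA11, EMX2 and ESR1, were well above background on all arrays, and the progesterone receptor probe (PGR) on none. Some uteri stood apart in markers of other tissue. The mean level of 6 squamous epithelium markers was 10.84 in GD165 control replicate 6 against 7.16 to 7.78 in the other term controls. The mean level of 7 skeletal muscle markers was 12.49 in GD165 control replicate 5 and 11.97 in GD165 BPA replicate 5, and 7.12 to 9.93 in the other term uteri. The age differences of the receptors near or past a threshold, and the calls within the pathway lists, are therefore also given without each of these 3 term animals. At mid-gestation GD100 BPA replicate 1 had a skeletal muscle mean of 8.07, against 5.70 to 6.24 in the other GD100 BPA fetuses. Its mean of the nerve markers was 9.67, against 8.43 to 8.82. Without it 3 receptors were called with age in exposed fetuses, as with all animals.

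**Figure D1:**
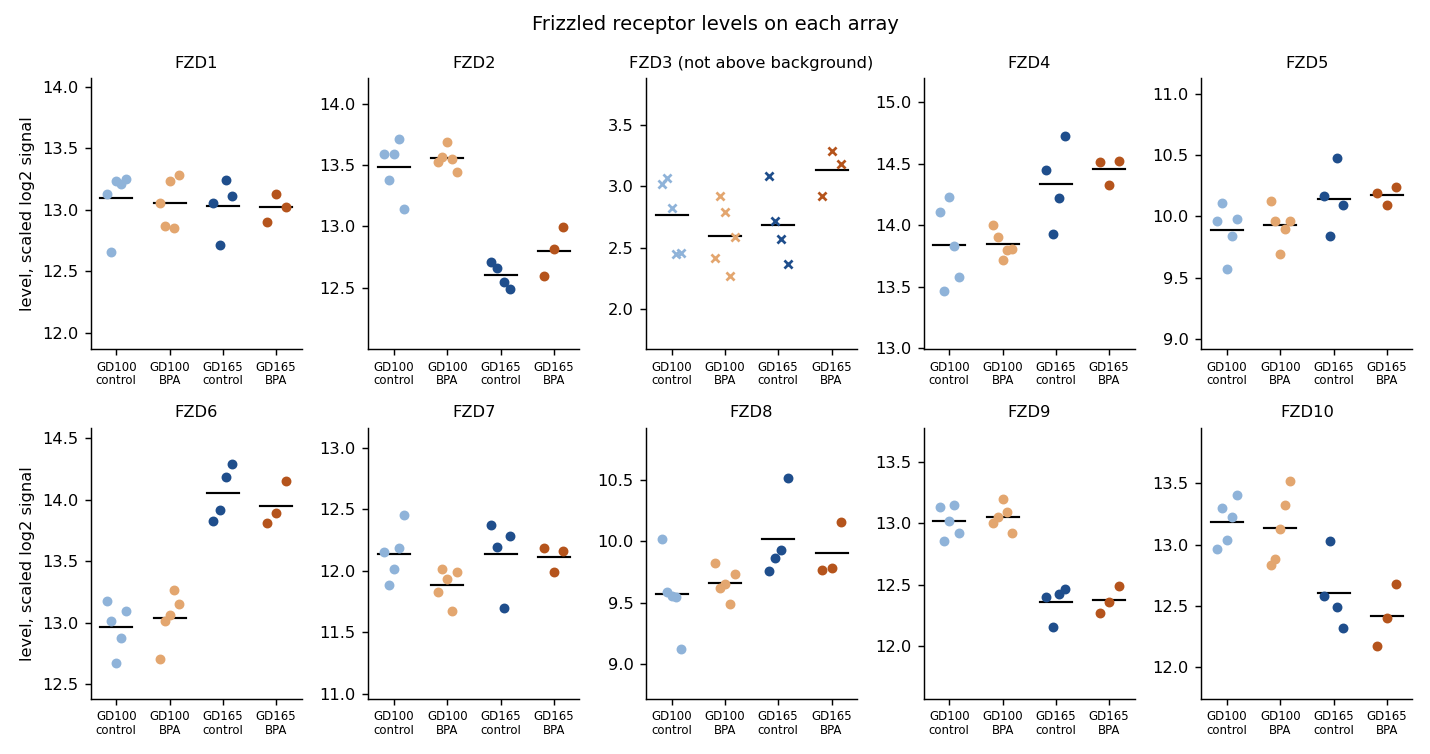
Level of each Frizzled receptor (y axis, scaled log2 signal, with the same span in each panel) on each of the 17 arrays by group (x axis); points are fetuses and bars are group means. FZD2 and FZD9 were lower and FZD6 higher in both GD165 groups without overlap, and the crosses of FZD3 are readings that were not well above background.

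The first question was whether the receptors differ between mid-gestation and term in unexposed uteri. They did not move as a family: of the 10 genes FZD6 rose, FZD2 and FZD9 fell, and the other 7 did not pass an adjusted p of 0.01 in the fit of limma to all probes. The rise of FZD6 was 2.13-fold and the falls of FZD2 and FZD9 were 1.84-fold and 1.58-fold. Over all 20217 probes the share past this threshold was 11.5%, of which 6.32% of probes were higher and 5.2% lower at GD165. The median difference of the 10 genes, FZD3 at background included, was −0.03 on the log2 scale and that of all probes 0.00.

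FZD2 belongs with FZD1 and FZD7 and is known as a receptor for WNT5A. Its level in the 5 GD100 controls was 13.59, 13.38, 13.59, 13.71 and 13.14. In the 4 GD165 controls it was 12.71, 12.66, 12.54 and 12.50. Every term control thus lay below the lowest GD100 control, as was the case for 19.4% of all probes in either direction. The fitted difference was −0.88 (SE 0.11, 95% interval −1.12 to −0.64, adjusted p = 9.3e-05 by limma). The 2 slides that held a control of each age gave −0.92 and −0.43. Without GD165 control replicate 5 it was −0.86, and without replicate 6 it was −0.84.

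Its subfamily partners gave no such difference. FZD7, a receptor also known from stem cell compartments, had a level of 12.14 ± 0.21 (SD, n = 5) at GD100 and 12.14 ± 0.30 (SD, n = 4) at GD165. The difference was −0.00, with a 95% interval of −0.30 to 0.29, which holds no shift of FZD7 beyond 0.30 in either direction. FZD1 was at 13.10 ± 0.25 (SD, n = 5) and 13.03 ± 0.23 (SD, n = 4), a difference of −0.07 (95% interval −0.37 to 0.24). Both intervals lie wholly above that of FZD2.

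FZD9, a receptor studied mainly in bone and in the nervous system, had the tightest values of the family. The 5 GD100 controls were at 13.14, 12.85, 13.02, 13.15 and 12.92. The 4 GD165 controls were at 12.40, 12.15, 12.43 and 12.46. The groups did not overlap, and the gap between them, from 12.46 to 12.85, was wider than the range of either. The difference was −0.66 (SE 0.09, 95% interval −0.85 to −0.46, adjusted p = 1.6e-04), and within the 2 slides it was −0.87 and −0.53. It was −0.68 without GD165 control replicate 5 and −0.69 without replicate 6. The standard deviation of FZD9 within groups was 0.12, against a median of 0.25 over all probes, which placed it at the 13.6th percentile. That of the other members ran from 0.16 in FZD2 to 0.27 in FZD3.

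FZD10, the closest relative of FZD9 by sequence, was also lower at term but less evenly. Its levels were 12.96, 13.30, 13.04, 13.23 and 13.40 in GD100 controls. They were 12.58, 13.03, 12.49 and 12.32 in GD165 controls. The term value of 13.03, from replicate 3, fell inside the GD100 range, and the other 3 term controls lay below it. The difference of −0.58 (SE 0.17, adjusted p = 0.022) passed 0.05 but not 0.01. The 2 slides with both ages gave −0.01 and −0.82, so that 1 of them showed next to no fall. Without replicate 3 the difference was −0.72 and passed 0.01 (adjusted p = 0.0071). Without replicate 5 it was −0.54 (adjusted p = 0.054) and without replicate 6 −0.49 (adjusted p = 0.084), and it then missed 0.05 as well.

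FZD4, which besides WNTs binds norrin and is known for its role in blood vessel growth, had higher levels at term. The GD100 controls were at 14.10, 13.46, 14.23, 13.83 and 13.58. The GD165 controls were at 14.45, 13.93, 14.22 and 14.73. Replicates 3 and 5 at term fell inside the GD100 range, and replicates 1 and 6 exceeded every GD100 control. The difference was 0.49 (SE 0.17, adjusted p = 0.047). On 1 of the 2 slides with both ages it was −0.30 and on the other 0.87. At an adjusted p of 0.05, which 21.2% of all probes passed, FZD10 and FZD4 would join the other 3. The difference of FZD4 was 0.36 (adjusted p = 0.17) without GD165 control replicate 6 and 0.53 (adjusted p = 0.058) without replicate 5, so that neither FZD4 nor FZD10 passed 0.05 without either animal.

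FZD6 was the receptor that rose. This member of the FZD3 and FZD6 pair orients hair follicles and skin cells and can hold back beta-catenin signaling. GD100 controls were at 13.18, 13.02, 12.67, 12.88 and 13.10. GD165 controls were at 13.83, 13.92, 14.19 and 14.30. All term values exceeded all GD100 values, with an empty interval from 13.18 to 13.83 between the groups. The difference was 1.09 (SE 0.14, 95% interval 0.80 to 1.38, adjusted p = 8.0e-05), and within the 2 slides it was 1.24 and 0.73. Without GD165 control replicate 5 it was 1.047, and without replicate 6 it was 1.01.

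FZD8 and FZD5, a closely related pair that signals through beta-catenin, were both somewhat higher at term, with values that did not pass. FZD8 was at 9.57 ± 0.32 (SD, n = 5) in GD100 and 10.02 ± 0.34 (SD, n = 4) in GD165 controls, a difference of 0.45 (95% interval 0.08 to 0.82, adjusted p = 0.078). Without GD165 control replicate 6, its highest value at 10.52, the difference was 0.28, and without replicate 5 it was 0.48. FZD5 was at 9.89 ± 0.20 (SD, n = 5) and 10.15 ± 0.26 (SD, n = 4), a difference of 0.25 (95% interval −0.02 to 0.53, adjusted p = 0.19). That of FZD5 was 0.14 (adjusted p = 0.49) without GD165 control replicate 5 and 0.27 without replicate 6.

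The same question was asked in exposed fetuses, 3 at GD165 and 5 at GD100, which are animals that the control comparison did not use. FZD6 again was higher and FZD2 and FZD9 lower at term, and no other member passed 0.01. Over all probes 9.68% passed, 4.82% higher and 4.86% lower. The median difference of the 10 genes, again with FZD3, was 0.23, and that of all probes −0.05. Without scaling between arrays the split of calls was 1246 higher and 389 lower in place of 974 and 982.

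FZD2 was at 13.53, 13.56, 13.69, 13.55 and 13.44 in the GD100 BPA fetuses. It was at 12.60, 12.81 and 12.99 in the GD165 BPA fetuses. The groups were apart, with no value between 12.99 and 13.44, and the difference in means was −0.75 (SE 0.12, adjusted p = 7.9e-04). Without GD165 BPA replicate 5, the highest of the term values, it was −0.85.

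FZD9 was at 13.003, 13.05, 13.20, 13.09 and 12.92 in the GD100 BPA fetuses. It was at 12.27, 12.36 and 12.49 in the GD165 BPA fetuses. As in the controls the groups were tight and apart, with a difference of −0.68 (SE 0.10, adjusted p = 3.7e-04). Without GD165 BPA replicate 5 it was −0.74.

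FZD6 was at 12.71, 13.01, 13.06, 13.27 and 13.15 in the GD100 BPA fetuses. It was at 13.81, 13.89 and 14.16 in the GD165 BPA fetuses. The term values were again all higher, and the difference was 0.91 (SE 0.15, adjusted p = 8.2e-04), a 1.88-fold change. Without GD165 BPA replicate 5 it was 0.81.

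With slide as a fixed block, FZD2 (adjusted p = 0.023) and FZD9 (adjusted p = 0.012) no longer passed 0.01 and FZD6 did. Only 1 slide held exposed fetuses of both ages, and this fit also links the other slides through the control fetuses. The slide with both ages gave 1.004 for FZD6, −0.45 for FZD2 and −0.43 for FZD9.

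FZD10 and FZD4 again came near the threshold in exposed fetuses. FZD10 was at 12.84 to 13.52 in the 5 GD100 BPA fetuses and at 12.18, 12.40 and 12.68 in the 3 at term, a difference of −0.72 (SE 0.18, adjusted p = 0.013). FZD4 was at 13.72 to 14.01 at GD100 and at 14.52, 14.33 and 14.52 at term, a difference of 0.61 (SE 0.18, adjusted p = 0.027). Neither gene's groups overlapped here, but neither did those of 27.2% of all probes, and 21% of probes passed 0.05. The remaining receptors FZD5, FZD7 and FZD8 differed by 0.25, 0.22 and 0.24 and FZD1 by −0.04, with intervals that include 0. Without GD165 BPA replicate 5, FZD10 was at −0.85 (adjusted p = 0.014), FZD4 at 0.58 (adjusted p = 0.081) and FZD8 at 0.11, down from 0.24. Without GD165 control replicate 3, which enters this comparison only through the shared spread, FZD10 passed 0.01 (adjusted p = 0.0078).

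**Figure D2:**
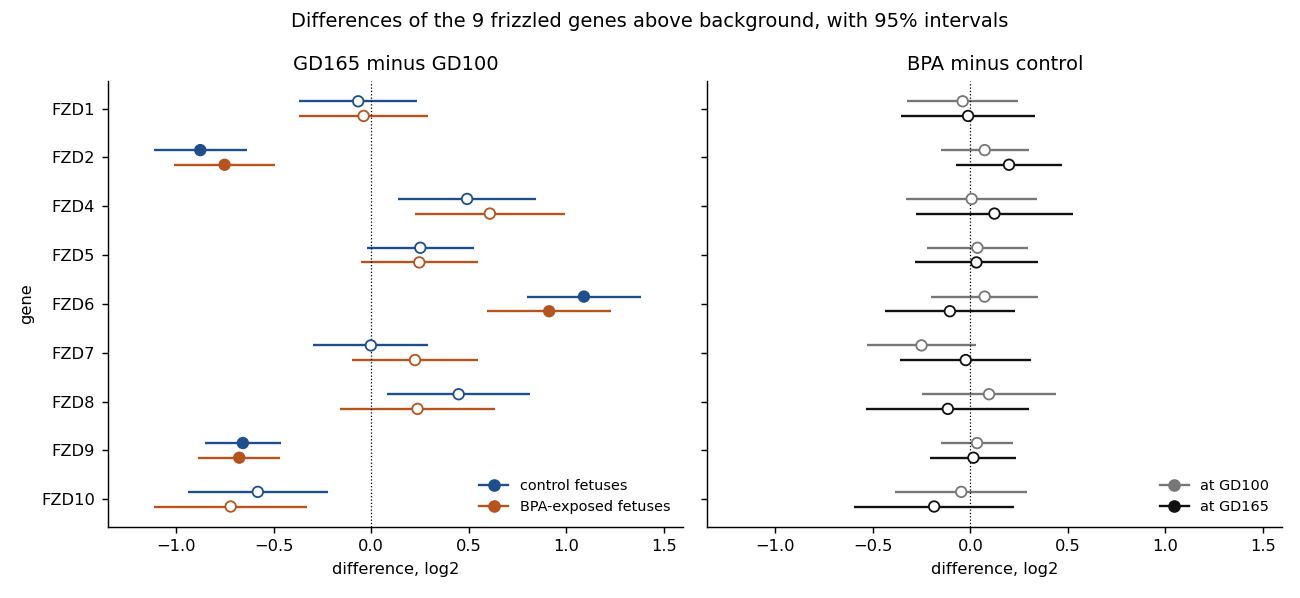
Difference in log2 level (x axis) for the 9 receptors above background (y axis), with age on the left and BPA exposure on the right; points are differences of group means, bars 95% intervals of the fit and filled points pass an adjusted p of 0.01. The age differences of FZD2, FZD6 and FZD9 are filled in both control and exposed fetuses, and no point on the right is filled.

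The second question was whether BPA given from day 50 to day 100 altered the receptors at GD100. No member was called, and neither was any probe of the array (0%, with 767 probes at an unadjusted p under 0.05 and a smallest adjusted p of 0.58). The member with the smallest p was FZD7. Its levels were 11.83, 12.02, 11.93, 11.67 and 11.99 in the GD100 BPA fetuses. They were 12.16, 11.89, 12.01, 12.18 and 12.45 in the GD100 controls. Of the exposed values 2 lay below the lowest control and the other 3 inside the control range, with a difference of −0.25 (SE 0.13, 95% interval −0.53 to 0.03, adjusted p = 0.9999). For the other 8 measured members the differences ran from −0.05 in FZD10 to 0.10 in FZD8. The narrowest interval was that of FZD9, −0.15 to 0.22, and the widest that of FZD8, −0.25 to 0.44. As ratios of exposed to control, the outermost bounds over the measured members were 0.69 in FZD7 and 1.36 in FZD8. Groups without overlap, which 0.782% of all probes had, occurred in none of them.

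At GD165, after exposure from day 100, no member and no probe was called either (0%, with 1740 probes at an unadjusted p under 0.05 and a smallest adjusted p of 0.12). FZD2 is one of the genes that the study reported as altered by exposure in this comparison, with a different test. Its 3 exposed fetuses were at 12.60, 12.81 and 12.99 and its 4 controls at 12.71, 12.66, 12.54 and 12.50. Replicate 3 of the exposed fetuses lay inside the control range and the other 2 above it. The difference was 0.20 (SE 0.13, 95% interval −0.08 to 0.47, 1.15-fold, adjusted p = 0.70). On the slide that held 2 of the exposed fetuses with 1 control it was −0.01, and without GD165 BPA replicate 5 it was 0.10.

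The other measured members differed at GD165 from −0.19 in FZD10 to 0.12 in FZD4. The value of FZD10 was −0.05 without GD165 control replicate 3 and −0.32 without GD165 BPA replicate 5. The intervals were wider here than at GD100: for FZD10 −0.59 to 0.22 and for FZD4 −0.28 to 0.53, while FZD9 had −0.20 to 0.24. None of these members separated the groups, as 7.31% of all probes did. The values of FZD3 in the 3 exposed fetuses, 2.92 to 3.28, were higher than most of those in the controls, 2.36 to 3.08, but none of these readings was well above background.

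Whether the BPA difference itself changed with age was tested as an interaction, which is the same quantity as the difference between the age effects of exposed and control fetuses. No member and no probe passed (0%, with 1584 probes at an unadjusted p under 0.05 and a smallest adjusted p of 0.27). For FZD2 it was 0.12 (SE 0.17, 95% interval −0.23 to 0.48), and 0.03 without GD165 BPA replicate 5. For FZD9 it was −0.02 (95% interval −0.30 to 0.27) and for FZD6 it was −0.18 (95% interval −0.61 to 0.25).

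The 4 groups were also ordered by mean level, an order that carries weight only where neighbors differ beyond their spread. From high to low FZD2 and FZD9 ran GD100 BPA, GD100 control, GD165 BPA, GD165 control, and FZD6 ran GD165 control, GD165 BPA, GD100 BPA, GD100 control. In these 3 genes the step across age passed 0.01 without overlap, at 0.68 in FZD2, 0.64 in FZD9 and 0.91 in FZD6, and neighbors of the same age did not differ beyond their spread. FZD10 had the GD100 groups above the GD165 groups, and its step across age, 0.53, passed only 0.05 (adjusted p = 0.032). FZD4 had both term groups on top with a step of 0.49 (adjusted p = 0.048). FZD5 and FZD8 were ordered like FZD4 and FZD6 with steps of 0.22 and 0.24 that did not pass. In FZD1 and FZD7 no 2 neighbors differed. Between the groups farthest apart in both age and exposure, GD165 BPA and GD100 control, FZD10 also passed, at −0.77 (SE 0.18, adjusted p = 0.0098).

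Within groups some pairs of receptors moved together and others apart. Over 45 pairs of members, the correlation of their deviations from the group means on the 17 arrays ran from −0.66 (FZD4 with FZD10) to 0.59 (FZD4 with FZD8), with a median of 0.01. That of FZD2 with FZD9 was 0.58 and that of FZD4 with FZD9 was 0.54. These values describe arrays that share slides and scaling, and the pairs include FZD3, which was at background.

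The named genes closest to each called receptor over the 17 arrays were looked up among 15337 probes with a signal well above background on all 17 arrays. These correlations include the age difference itself, so those of the deviations from group means are given beside them. The genes were picked by the first correlation, which also holds these deviations, so the second is not free of that choice. For FZD2 they were GSG2 (r = 0.97, deviations 0.68), a kinase that acts on histones in mitosis, HDAC3 (0.96, deviations 0.74), a histone deacetylase, and HIST1H3I (0.96, deviations 0.69), a histone H3 gene with near-identical copies. For FZD9 they were C22orf18 (0.97, deviations 0.66), the mitotic kinesin KIF15 (0.96, deviations 0.54) and LOC708805 (0.96, deviations 0.56). For FZD6 they were FLJ20160 (0.97, deviations 0.74), C1orf139 (0.96, deviations 0.65) and PLS1 (0.96, deviations 0.65), an actin bundler of microvilli. For FZD10, called only between GD165 BPA and GD100 control, they were TCF12 (0.93, deviations 0.85), LOC700903 (0.92, deviations 0.85) and SND1 (0.91, deviations 0.73).

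Markers of cell types and of cell division also differed between the ages. All 6 measured markers of dividing cells, among them MKI67 and TOP2A, fell in controls and in exposed fetuses, and 5 did in exposed fetuses without GD165 BPA replicate 5. Their mean level was 11.60 to 11.84 in GD100 controls, 11.64 to 11.86 in GD100 BPA, 10.26 to 10.67 in GD165 controls and 10.33 to 11.14 in GD165 BPA uteri. In the 3 GD165 BPA fetuses, at FZD2 levels of 12.60, 12.81 and 12.99, it was 10.33, 10.78 and 11.14. In the 4 GD165 controls, at FZD2 levels of 12.71, 12.66, 12.54 and 12.50, it was 10.38, 10.26, 10.67 and 10.60. Both measures thus had the same order in the exposed fetuses, whereas among the controls the higher FZD2 levels went with the lower marker levels. FZD9, which also fell with age, was at 12.27, 12.36 and 12.49 in the same exposed fetuses, again in the order of the markers. In the same controls it was at 12.40, 12.15, 12.43 and 12.46, so that there the lower FZD9 levels went with the lower marker levels. The 6 epithelial markers, of which 3 rose in controls and 1 in exposed fetuses, had a mean level of 12.06 to 12.78 in GD100 controls, 12.13 to 12.81 in GD100 BPA, 12.78 to 13.15 in GD165 controls and 12.25 to 12.73 in GD165 BPA uteri. Without either GD165 control replicate 5 or 6, 1 epithelial marker rose in controls, and without GD165 BPA replicate 5 none did in exposed fetuses.

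The other marker lists stand beside the 6.32% of probes higher and 5.2% lower in controls and the 4.82% and 4.86% in exposed fetuses. Of the 6 smooth muscle markers 2 rose in controls and 1 in exposed fetuses, and their mean level in controls was 16.34 to 16.93 at GD100 and 16.90 to 17.47 at GD165. Of the 5 stromal markers 1 fell in controls and none in exposed fetuses, and their mean level in controls was 15.78 to 16.25 at GD100 and 15.36 to 16.04 at GD165. Of the 6 endothelial markers 1 rose in controls and 2 in exposed fetuses, and of the 6 leukocyte markers 1 rose in each. Without GD165 BPA replicate 5 the endothelial and smooth muscle calls in exposed fetuses were lost. In controls the stromal call was lost without replicate 5, and MYH11 of smooth muscle was gained. Without replicate 6 the endothelial call and CNN1 of smooth muscle were lost. The skeletal muscle markers, of which 4 of 7 rose in controls and 1 in exposed fetuses, had a mean level of 5.43 to 6.12 in GD100 controls and 7.90 to 12.49 in GD165 controls. Without either GD165 control replicate 5 or 6, 1 of the 7 rose in controls. Of the 4 erythroid markers 1, HBB, rose in controls and in exposed fetuses, and the median of the 4 was −0.03 and −1.17. ALAS2 at −2.54 and SLC4A1 at −2.43 were lower in exposed fetuses without passing 0.01. Without GD165 BPA replicate 5 both passed, at −3.53 and −3.11. Of the 5 nerve markers 1 rose in controls and none in exposed fetuses. None of the 6 squamous markers passed in either. The part of these markers in the receptor results was not tested.

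**Figure D3:**
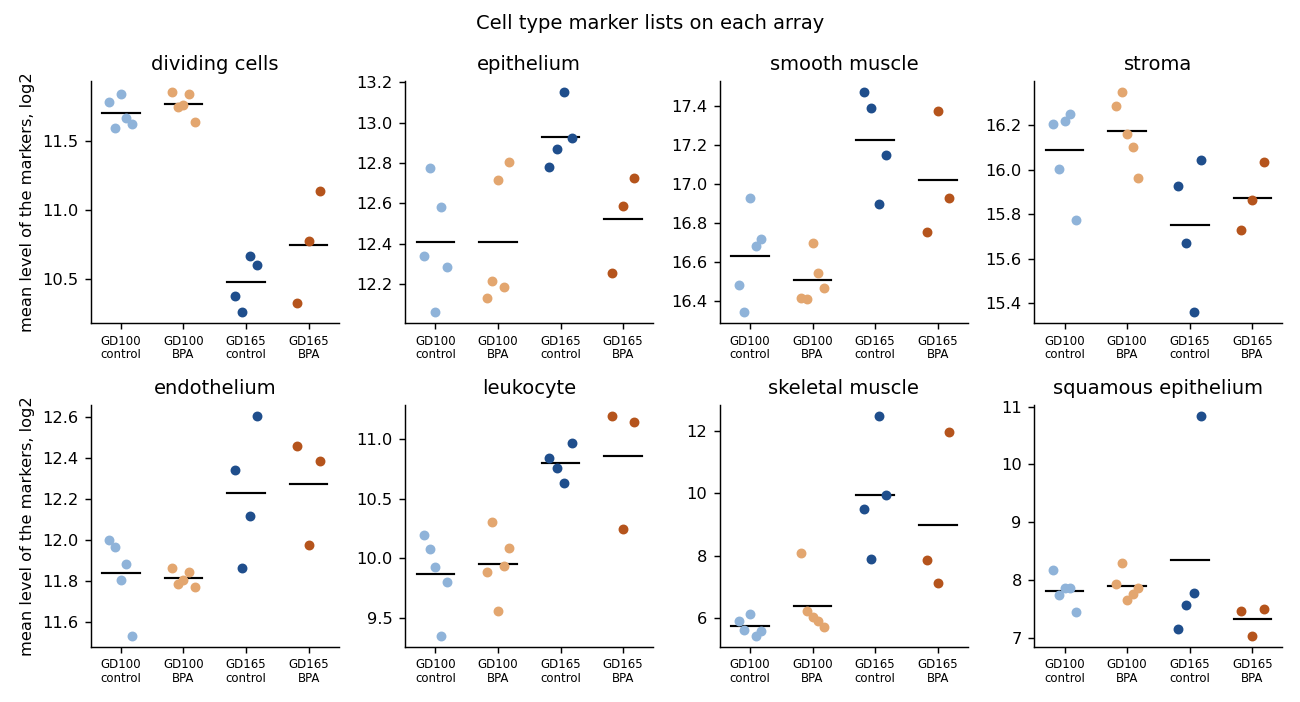
Mean log2 level of 8 marker lists (y axis, one panel each with its own scale) on each of the 17 arrays by group (x axis); points are fetuses and bars are group means. The dividing cell markers lay at 11.60 to 11.86 in the GD100 groups and at 10.26 to 11.14 in the GD165 groups, and single term uteri stand out in the skeletal muscle and squamous epithelium panels.

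The other parts of the pathway were read from fixed lists, again in the order from ligand to target, and the difference between control ages is given first. Their counts stand beside the share of all probes called, 11.5% in controls and 9.68% in exposed fetuses, and with 1 or 2 calls in most lists they are not read as particular to a list. Of 19 WNT ligands, 1 was called, WNT5A, a ligand of the polarity branch, which was lower at term, at −0.55 (SE 0.13, adjusted p = 0.0070). It went from 14.15 ± 0.23 (SD, n = 5) to 13.60 ± 0.13 (SD, n = 4). The median difference of the ligands was −0.13, beside 0.00 over all probes, and 3 of them (WNT1, WNT8B and WNT16) were not well above background on any array. In exposed fetuses none of the 19 passed 0.01, and the smallest p was that of WNT11, at −0.32 (adjusted p = 0.017).

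Norrin (NDP), the non-WNT ligand of FZD4, rose from 13.38 ± 0.24 (SD, n = 5) to 14.45 ± 0.30 (SD, n = 4) in controls, a difference of 1.07 (SE 0.17, adjusted p = 4.5e-04). In exposed fetuses it rose by 0.86 (SE 0.18, adjusted p = 0.0046). NDP and LGR6, a receptor for R-spondins that was not called in any comparison, were the only 2 of 10 genes listed with receptor turnover that carried a probe by name.

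Of 9 co-receptors and other WNT receptors measured, LRP5, LRP6 and ROR1 among them, 1 was called. GPC3, a glypican that holds WNT at the cell surface, fell from 14.68 ± 0.22 (SD, n = 5) to 13.60 ± 0.24 (SD, n = 4), by 1.08 on the log2 scale (SE 0.18, adjusted p = 7.3e-04). In exposed fetuses none of the 9 was called, and the smallest p was that of ROR2, the receptor partner in WNT5A signaling, at −0.30 (adjusted p = 0.015). The median of the list was −0.21 in controls.

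Secreted antagonists held the largest difference of the pathway lists in both controls and exposed fetuses. Of 12 measured, 3 rose and 1 fell in controls and likewise in exposed fetuses. WIF1, which binds WNT proteins, rose by 2.34 (SE 0.23, 5.08-fold, adjusted p = 1.4e-05) in controls and by 2.02 in exposed fetuses. SFRP4, a soluble Frizzled-like decoy, rose by 1.64 (SE 0.27, adjusted p = 6.1e-04) and by 2.08. FRZB, another decoy, rose by 0.85 (SE 0.20, adjusted p = 0.0075) and by 1.21. DKK2, which blocks the LRP co-receptors, fell by 1.27 (SE 0.27, adjusted p = 0.0035) and by 1.26. The median of the 12 was 0.05 in controls and −0.06 in exposed fetuses.

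**Figure D4:**
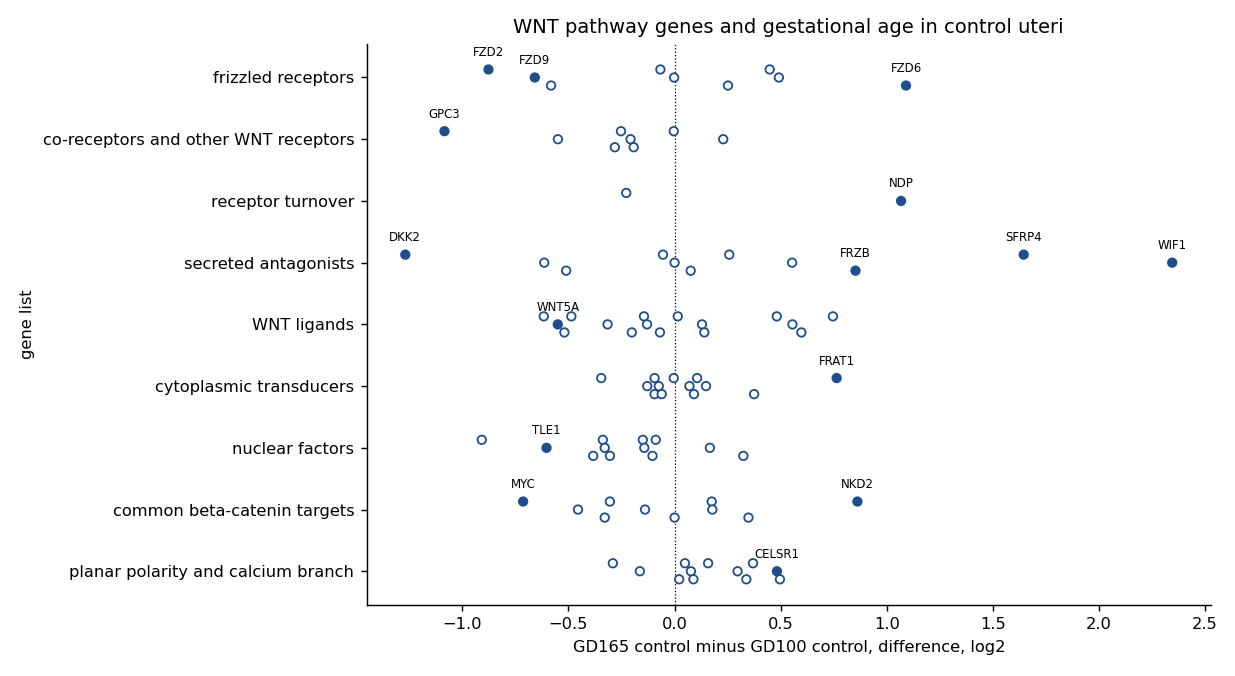
Difference in log2 level between GD165 and GD100 controls (x axis) for the measured genes of 9 WNT pathway lists (y axis), leaving out genes not well above background on any array; filled and named points pass an adjusted p of 0.01 and the vertical offset within a list has no meaning. The secreted antagonists spread from −1.27 to 2.34, wider than the receptors, which spread from −0.88 to 1.09.

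Inside the cell, 1 of 13 cytoplasmic transducers was called in controls and 2 in exposed fetuses, of a list that holds the dishevelled genes, GSK3B and CTNNB1. FRAT1, which binds GSK3, rose by 0.76 in controls (SE 0.15, adjusted p = 0.0025) and by 0.70 in exposed fetuses. Its other probe gave 0.54 in controls and 0.64 in exposed fetuses and passed in both. CSNK1E, a casein kinase, rose by 0.52 in exposed fetuses (adjusted p = 0.0068). Of 12 nuclear factors TLE1, a co-repressor of TCF, fell by 0.60 in controls (SE 0.08, adjusted p = 9.4e-05), and none was called in exposed fetuses, where the smallest p was that of BCL9 at −0.35 (adjusted p = 0.019).

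Of 10 genes often used as beta-catenin targets, NKD2, an inhibitor of dishevelled, rose by 0.86 (adjusted p = 0.0069) and MYC fell by 0.71 (adjusted p = 0.0081) in controls. Neither AXIN2 nor the other 7 passed, and the median was −0.07. In exposed fetuses none passed, with MYC at −0.53 (adjusted p = 0.058). Of 12 genes of the polarity and calcium branch, CELSR1, a polarity cadherin, rose by 0.48 in controls (SE 0.12, adjusted p = 0.0075) and stood at 0.43 in exposed fetuses (adjusted p = 0.025).

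Several of these calls did not pass when a single animal was left out, which also made its group smaller. Without GD165 control replicate 6, WNT5A, FRZB, DKK2, NKD2, MYC and CELSR1 no longer passed 0.01 in controls, with adjusted p values from 0.015 to 0.033, and 1512 in place of 2328 probes were called in all. CELSR1 also did not pass without GD165 control replicate 5 (adjusted p = 0.025). In exposed fetuses without GD165 BPA replicate 5, NDP, DKK2, FRAT1 and CSNK1E did not pass, with adjusted p values from 0.015 to 0.034, and GPC3 did, at −0.94 (adjusted p = 0.0088). Some of the lost calls kept their difference. NKD2 was at 0.88 and CELSR1 at 0.51 without GD165 control replicate 6, and DKK2 at −1.38 without GD165 BPA replicate 5. The other lost calls had smaller differences than with all animals, some of them only slightly. In exposed fetuses NDP was at 0.83 in place of 0.86, FRAT1 at 0.67 in place of 0.70 and CSNK1E at 0.50 in place of 0.52. In controls without replicate 6, MYC was at −0.51 in place of −0.71. WIF1 and SFRP4 passed in each of these 3 fits, at 1.38 to 2.42 on the log2 scale. These fits of the lists were chosen after seeing the data.

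With BPA no gene of these lists was called at either age. At GD100 the smallest p of each list belonged to GPC3 at 0.29, LGR6 at −0.20, DKK1, an LRP blocker, at 0.70, WNT2 at 0.65, CSNK1E at −0.24, TCF7L1 at −0.15, SP5 at −0.46 and DAAM1 at 0.21, each with an adjusted p of 0.9999. At GD165 GPC3 was at 0.63 (SE 0.21, adjusted p = 0.46) and WNT11 at −0.35 (SE 0.09, adjusted p = 0.39). LGR6 was at 0.52, KREMEN1 at −0.28, CSNK1E at 0.20, PYGO1 at 0.88, AXIN2 at 0.26 and PRICKLE1 at 0.31, with adjusted p values from 0.56 to 0.78. The other probe of KREMEN1 gave 0.04.

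Beside FZD2 the study reported WNT2, WNT4 and WNT5A as higher in exposed term fetuses with a different test, and WNT2 and WNT4 also by PCR. Their means were higher here too, at 2.18-fold, 1.58-fold and 1.29-fold. The unadjusted p values by limma were 0.016, 0.0072 and 0.025, and none passed after adjustment over all probes. WNT2 was at 9.82 ± 0.72 (SD, n = 3) in exposed and 8.69 ± 0.54 (SD, n = 4) in control uteri, a difference of 1.13 (SE 0.42, adjusted p = 0.50). WNT4, which the female reproductive tract needs for its formation, was at 12.04 ± 0.21 (SD, n = 3) and 11.38 ± 0.22 (SD, n = 4), a difference of 0.66 (SE 0.21, adjusted p = 0.46). WNT5A was at 13.96 ± 0.14 (SD, n = 3) and 13.60 ± 0.13 (SD, n = 4), a difference of 0.37 (SE 0.15, adjusted p = 0.53).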

How the data were processed

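Uterine RNA of 17 fetuses, 1 array each, was measured in 4 groups taken from the sample labels. The authors extracted the arrays with Agilent Feature Extraction 9.5 at 1-color defaults and deposited linear intensities, background-subtracted and detrended but not scaled between arrays; their table of all arrays was identical to the scanner values in 711467 of 711467 values. Their error-weighted ANOVA was not repeated. Here control and outlier spots were left out, both spots of each probe were averaged as log2 values, and each array's 75th percentile was subtracted (its mean, 12.62, was added back for levels). limma 3.58.1 in R 4.3.3 (lmFit, eBayes) was fitted to 20217 probes on all 17 arrays, with two-sided tests, Benjamini-Hochberg adjustment over all probes and a threshold of 0.01. Tables were summarized in Python 3.11.15 (numpy 2.4.6, pandas 2.3.3). The test was checked on simulated data.

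Probes were named from their descriptions and the reference tables of gene symbols (18774 probes, 92.9%); where a gene had more than 1 probe the brightest stands for it. Named were all FZD genes, up to 3 called members of each pathway list in each direction or the 1 with the smallest p, the WNT and FZD genes the study names, and the 3 genes most like each called receptor. The receptors, lists and tests were chosen with earlier results of these data known. The arrays lay on 6 slides. The probe positions in the files were not used here, because their chromosome numbers did not match the named macaque build. Signals and errors of the scanner files gave the alternatives described in the closing section.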

Additional observations from a re-analysis of the deposited data

Results flagged for a closer look

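Of the levels, 1 reading in 30 checked groups of levels stood apart from its group, where chance alone flags about 1 in 20. The level of FZD1 in GD100 control replicate 2 was 12.65, and the other 4 GD100 controls were at 13.13 to 13.25; its gap to the nearest of them took up 0.801 of the range of the group. Without this fetus the difference of FZD1 between GD165 and GD100 controls was −0.18 in place of −0.07, and the BPA difference at GD100 was −0.15 in place of −0.04, neither of which passed.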

How the results depend on the processing

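In control fetuses the rise of FZD6 and the falls of FZD2 and FZD9 with age passed 0.01 in all 32 alternatives that were tested, with adjusted p values up to 0.0024, 0.0053 and 0.0045. In exposed fetuses FZD6 passed in all 32, and 2 receptors were lost: FZD9 without scaling (−0.50, adjusted p = 0.012) and with slide as a fixed block (−0.57), and FZD2 with that block (−0.60). Gained there was FZD10 with normexp background correction (adjusted p = 0.0078) and with limma's trend and robust moderation (adjusted p = 0.0086). FZD4 was gained without scaling (adjusted p = 0.0095) and with the compared groups only (adjusted p = 0.0066). Of 1183 tested alternatives of single receptors, 59 turned the direction, 0 of them in a result past the threshold, 20 brought a result past it and 3 took one away. Averaging over a gene's probes changed nothing for the receptors, which have 1 probe each.

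The number of FZD genes called with age was 5 in controls and 5 in exposed fetuses at a threshold of 0.05. With a test that takes its error from the scanner's error model alone it was 7 and 8, and 1 (FZD7) for BPA at GD100. With slide as a fixed block it was 1 in exposed fetuses. Over all probes, the calls with age were 4279 in controls and 4255 in exposed fetuses at 0.05, 1172 and 1176 with the compared groups only, 9654 and 10267 with the error model alone, and 1233 and 512 with slide as a fixed block. Without scaling 1531 were called in controls. The error model alone called 3363 probes for BPA at GD100, 4831 for BPA at GD165 and 4663 for the interaction, and the compared groups alone called 1 for BPA at GD100. That error model leaves out the spread between animals. Leaving out 1 animal at a time gave 1512 (without GD165 control replicate 6) to 2370 calls with age in controls, 994 (without GD165 BPA replicate 4) to 2131 in exposed fetuses, and 0 to 1 for BPA at GD100, for BPA at GD165 and for the interaction. Without GD165 BPA replicate 5 the count in exposed fetuses was 1181.

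Same-numbered fetuses of different groups share only a number. Their deviations from group means correlated at −0.17 to 0.16 over 19 pairs (median 0.03, over 0.1 in 3). With the replicate block 958 probes were called with age in controls, FZD2, FZD6 and FZD9 among them, and the block changed no call of a receptor in the other comparisons.

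The reversals were all in differences without a call. With age in controls FZD7 was at 0.17 with slide as a fixed block and 0.010 with slide as a random block, and in exposed fetuses FZD1 was at 0.14 without scaling. For BPA at GD100, FZD4 was at −0.024 scaled to the median, −0.033 without scaling, −0.080 with slide fixed and −0.011 with slide random. FZD5 and FZD9 were at −0.0036 and −0.0057 without scaling, and with slide fixed FZD1 was at 0.050, FZD6 at −0.0080 and FZD10 at 0.015. For BPA at GD165 without scaling, which moves the median of all probes there from −0.02 to 0.14, FZD8 was at 0.044, FZD1 at 0.15, FZD7 at 0.14 and FZD6 at 0.055. With the replicate block FZD8 was at 0.15, FZD1 at 0.024 and FZD7 at 0.093. FZD1 was at 0.0010 with normexp background correction, 0.016 scaled to the median and 0.0020 with quantile normalization, and FZD7 at 0.0033 scaled to the median. The cause was not tested.

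Leaving out 1 animal at a time, the differences without a call that changed sign ranged as follows. With age, FZD1 went from −0.18 to 0.040 and FZD7 from −0.080 to 0.14 in controls, and FZD1 from −0.094 to 0.019 in exposed fetuses. For BPA at GD100, FZD1 went from −0.15 to 0.013, FZD2 from −0.011 to 0.13, FZD4 from −0.088 to 0.10, FZD5 from −0.045 to 0.094, FZD6 from −0.0011 to 0.16, FZD8 from −0.015 to 0.21, FZD9 from −0.0069 to 0.068 and FZD10 from −0.14 to 0.029. For BPA at GD165, FZD1 went from −0.12 to 0.058, FZD4 from −0.011 to 0.25, FZD5 from −0.070 to 0.14, FZD7 from −0.17 to 0.054, FZD8 from −0.24 to 0.051 and FZD9 from −0.054 to 0.068.

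The 3 to 5 animals per group and 3 slides shared by BPA and control at GD100 and 1 at GD165 limit the BPA comparisons. FZD3 stays bounded by the background.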
